A study of Mus musculus with 5 samples.

Results

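The insulin-like growth factor (IGF) axis was described by the CUT&RUN-seq peaks near 9 of its genes in mouse muscle stem cells (MuSCs): the ligands Igf1 and Igf2, the receptor Igf1r, and the binding proteins Igfbp2, Igfbp3, Igfbp4, Igfbp5, Igfbp6 and Igfbp7. These are 9 of 21938 protein-coding genes of the annotation (GENCODE M21 on mm10, the mouse assembly GRCm38). The genes were chosen by name, not by a measured value, but with earlier results of these data known. A peak was assigned to a gene when its nearest base lay within 50 kb of any annotated transcription start site (TSS) of that gene, and it was called a promoter peak within 3 kb of a TSS and a distal peak farther away. In CUT&RUN-seq an antibody directs a nuclease to the bound protein inside permeabilised cells, and the released DNA is sequenced. The JunB antibody was used on MuSCs of young mice in 3 libraries, labelled as biological replicates 1, 2 and 3, and of aged mice in 1 library, and H3K27ac, an acetylated histone residue found at active regulatory DNA, was profiled in 1 library. By the study's methods, MuSCs of young and aged mice were sorted as VCAM-positive cells lacking CD31, CD45 and SCA1. The GFP-positive gate is given there for MuSCs of control and inducible JunB knockout mice, both carrying a Yfp reporter. The peak names of young replicate 1 carry a GFP tag of unstated meaning, so the gate and genotype behind that library are not certain. For H3K27ac the labels and methods give CUT&RUN-seq of mouse MuSCs, but the methods also tie it to an outside epigenome mapping project, so its origin is not certain, which touches every H3K27ac overlap below. The aged mice were bought as C57BL/6. The strain of the young mice, the ages in months, the number of mice pooled per library and the age group of the H3K27ac library were not given for these libraries in the sources used here, and the series' design text describes the JunB libraries as DMSO- and MVC-treated where the labels say young and aged, so the labels were followed. The study states ages for the young and aged MuSCs of its RT-qPCR and does not repeat them for CUT&RUN-seq. With 1 aged library the ages were compared by description only, without a test.

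IGF1 and IGF2 are secreted ligands that act through the receptor tyrosine kinase IGF1R to promote growth, survival and protein synthesis, and in muscle they support the proliferation and differentiation of MuSCs and the growth of fibres. Most IGF in body fluids is held by binding proteins, which lengthen its life in the circulation, limit its access to the receptor, or release it when they are cut by proteases. IGFBP7 binds IGF weakly and is better known as a secreted protein of the matrix and of senescent cells. JunB is a subunit of AP-1, a dimer that recognises TGAGTCA or its reverse complement TGACTCA, and a related element of the CREB and AP-1 families, CRE, reads TGACGTCA.

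The sequences below carry the peaks on which the description turns, read on the plus strand from the RefSeq assembly GRCm38.p6, with AP-1 and CRE motifs in capitals and other bases in lower case. The promoter peaks were 1 at Igfbp6 in the aged library, shown as the 201 bp around its summit (chr15:102143153-102143353), and 1 at Igfbp7 in young replicate 1, shown whole (chr5:77406379-77406661). The remaining sequences were chosen after their values were seen. They include the peak in Igf1 that was found in young replicate 1 and the aged library (201 bp around the aged summit, chr10:87885676-87885876). The others are the aged peaks near Igfbp7 (chr5:77358354-77358641) and downstream of Igfbp6 (chr15:102167577-102167841) that held a motif.
Igfbp6 promoter, aged: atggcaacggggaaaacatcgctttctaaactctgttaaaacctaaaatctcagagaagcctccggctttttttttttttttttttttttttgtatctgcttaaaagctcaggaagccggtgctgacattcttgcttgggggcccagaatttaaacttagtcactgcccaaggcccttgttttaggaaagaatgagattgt
Igfbp7 promoter, young replicate 1: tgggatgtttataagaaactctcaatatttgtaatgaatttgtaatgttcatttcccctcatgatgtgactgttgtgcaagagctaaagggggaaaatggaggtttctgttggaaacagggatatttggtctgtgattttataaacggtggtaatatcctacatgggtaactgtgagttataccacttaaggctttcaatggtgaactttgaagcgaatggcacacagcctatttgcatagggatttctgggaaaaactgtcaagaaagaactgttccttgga
Igf1 intron, aged: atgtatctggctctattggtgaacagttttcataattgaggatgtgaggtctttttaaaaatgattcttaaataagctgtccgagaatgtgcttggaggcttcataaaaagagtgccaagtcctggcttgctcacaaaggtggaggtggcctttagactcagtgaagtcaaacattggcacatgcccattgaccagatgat
Igfbp7 intron, aged: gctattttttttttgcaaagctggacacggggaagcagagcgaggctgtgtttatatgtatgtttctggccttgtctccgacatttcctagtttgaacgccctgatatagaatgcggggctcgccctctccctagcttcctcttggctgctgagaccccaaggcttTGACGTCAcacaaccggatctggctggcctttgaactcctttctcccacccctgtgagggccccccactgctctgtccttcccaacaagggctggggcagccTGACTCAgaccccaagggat
Igfbp6 downstream, aged: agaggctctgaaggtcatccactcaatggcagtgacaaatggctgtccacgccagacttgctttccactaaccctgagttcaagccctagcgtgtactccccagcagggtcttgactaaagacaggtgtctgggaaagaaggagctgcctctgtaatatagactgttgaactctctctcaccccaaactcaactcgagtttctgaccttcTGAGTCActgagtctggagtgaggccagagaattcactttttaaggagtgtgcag
Neither promoter peak shows a capital letter, since no copy of either motif was present in them.

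The JunB lists of young replicates 1, 2 and 3 held 9534, 4884 and 3863 peaks, the aged list held 14123 and the H3K27ac list 39865. The lists hold no read numbers, and the study's reporting summary gives a read total without naming a library. The depth of each library is therefore unknown. The lists had not passed the same threshold: the weakest peaks had −log10 p of 3.01, 5.33 and 5.22 in the 3 young lists, 3.01 in the aged list and 3.96 in the H3K27ac list. The lowest −log10 q values in the same order were 0.40, 2.26, 2.10, 0.67 and 2.04. Young replicates 2 and 3 thus had stricter lists than young replicate 1 and the aged library. Of the marker genes of the labelled cell type, 5 of 8 (Myod1, Vcam1, Itga7, Cdh15 and Sdc4) had an H3K27ac promoter peak, beside 49.8% of all protein-coding genes, while Pax7, the defining gene of MuSCs, had none within 3 kb, and neither had Myf5 or Calcr. Markers of other cells with an H3K27ac promoter peak were 1 of 4 endothelial genes (Pecam1), 1 of 4 fibro-adipogenic genes (Dcn), 1 of 4 myofibre genes (Tnnt3) and 0 of 4 immune genes. JunB promoter peaks in any list were found at 5 of 8 MuSC genes. Of these, Vcam1 and Itga7 had such a peak in the aged library alone. Myod1 had it in all 4 lists, and Myf5 in every list except that of young replicate 3. Cdh15 had it in the aged library and young replicate 2. Other markers with a JunB promoter peak were 2 of 4 fibro-adipogenic (Pdgfra and Col1a1, aged library) and 1 of 4 immune genes (Cd68, in all 4 lists). It was found at 0 of 4 endothelial and 0 of 4 myofibre genes. These any-list counts have no reference, since that share was not computed over all protein-coding genes. The part of other cells in the results was not tested.

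The JunB peaks near the IGF genes came from young replicate 1 and the aged library, at Igf1 and Igfbp7 in the former and at Igf1, Igf1r, Igfbp4, Igfbp6 and Igfbp7 in the latter. Of the 11 peaks, 2 were promoter and 9 distal peaks. Within 50 kb of a TSS of the 9 genes young replicate 1 had 3 peaks, young replicate 2 had 0, young replicate 3 had 0 and the aged library had 8. In young replicate 1 they belonged to 2 of the 9 genes, beside 40.4% of all protein-coding genes with a peak at this distance in that list. No member had a peak in young replicates 2 and 3, where 27.5% and 23.4% of all genes had one. The aged peaks belonged to 5 of the 9 genes, a count close to the share of 58.4% over all genes. At promoters, young replicate 1 had a peak at 1 member (11.0% of all genes), young replicates 2 and 3 at 0 members (7.74% and 5.91% of all genes) and the aged library at 1 member (23.9% of all genes).

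Over the 3 young libraries together, 2 of the 9 genes had a peak within 50 kb and 1 within 3 kb, where 43.9% and 12.7% of all genes did. A peak in the aged list and in no young list was found within 50 kb of 3 members, Igf1r, Igfbp4 and Igfbp6, beside 20.6% of all genes. The peaks at Igf1r and Igfbp4 had −log10 p of 4.83 and 4.90. The weakest peaks of young replicates 2 and 3 had 5.33 and 5.22, so those lists held no peak that weak. No JunB list had a peak within 50 kb of 4 members, Igf2, Igfbp2, Igfbp3 and Igfbp5, beside 35.5% of all genes. Every young value at this distance came from replicate 1, and without it the young count was 0. The aged count of 8 regions and the young count of 3 regions both became 0 when each list was shortened to its 3863 strongest peaks, the length of the shortest list, so each of the 11 peaks was outside that number in its own list.

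**Figure D1:**
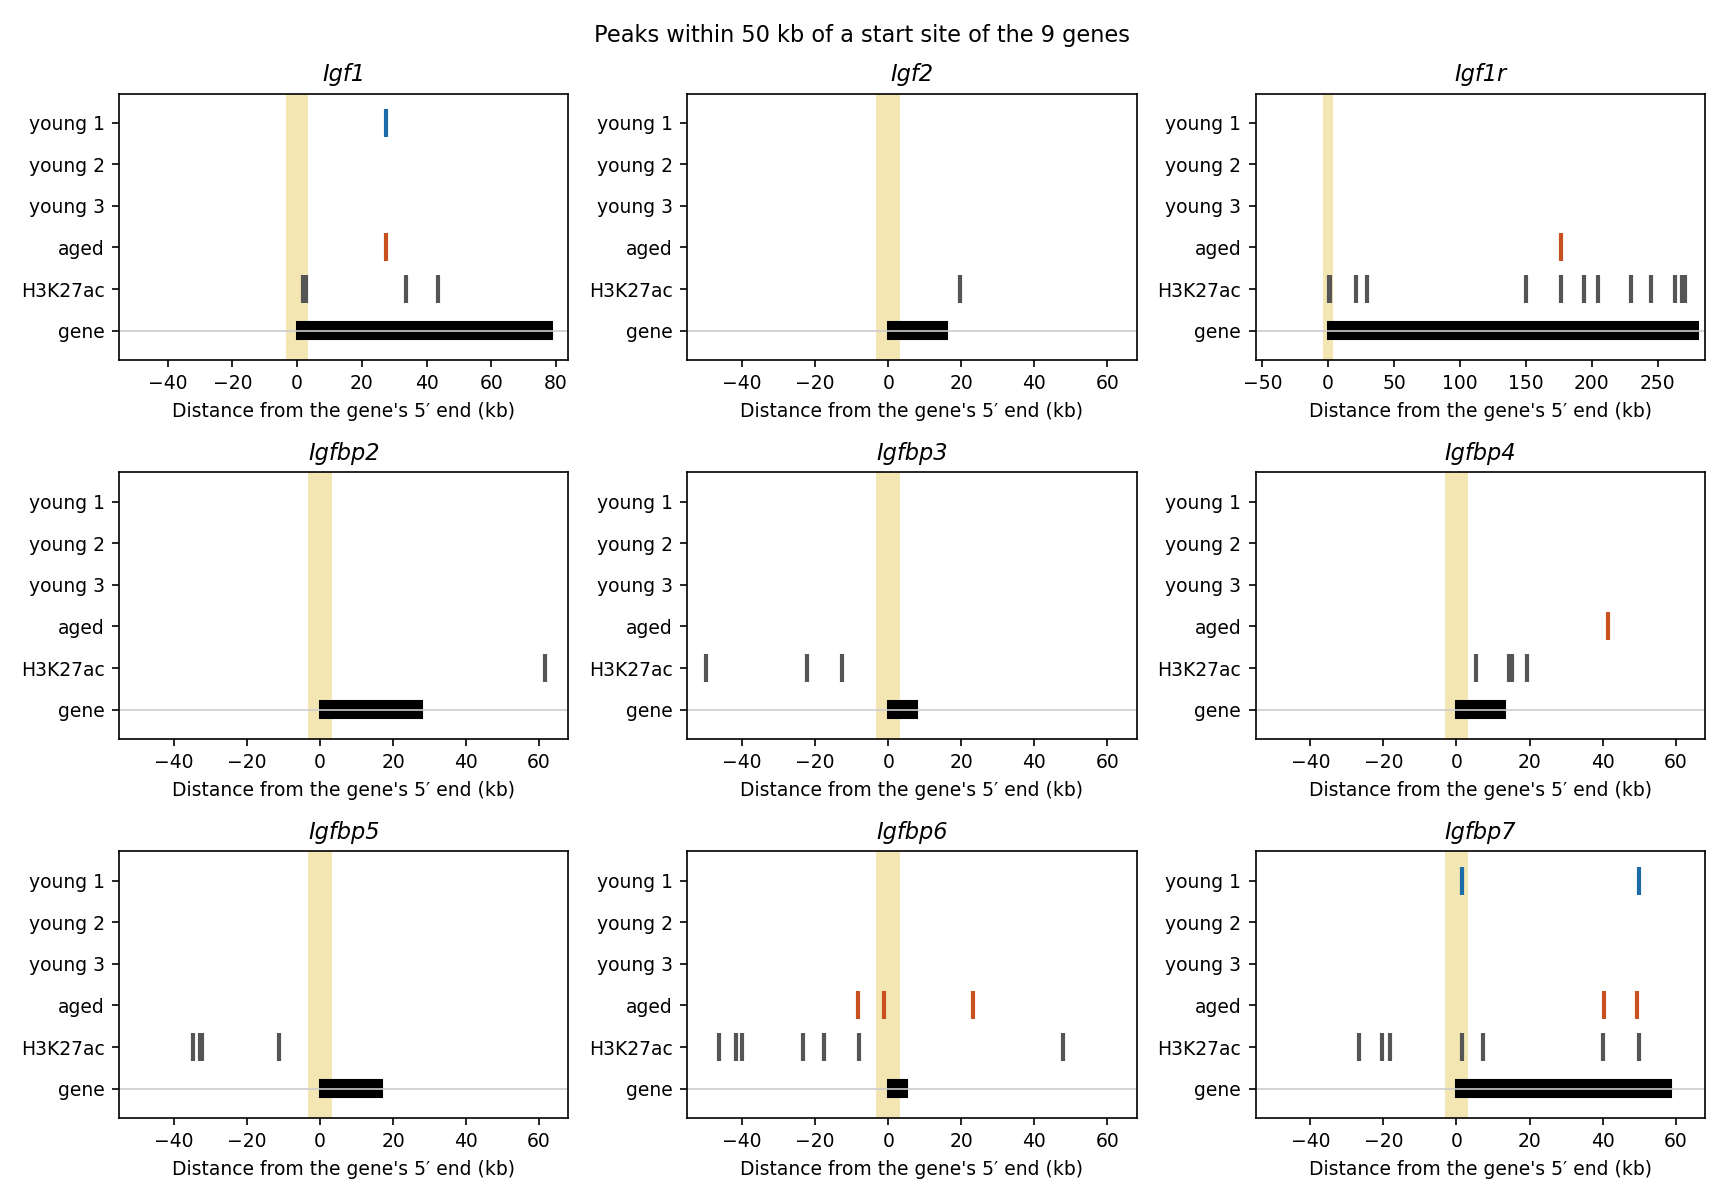
Position of each peak within 50 kb of a TSS of the 9 genes, as distance in kb of the peak summit from the 5′ end of the gene along the direction of transcription (x axis) for the 5 libraries (rows). The black bar is the gene and the pale band covers 3 kb to each side of its 5′ end. The rows of young replicates 2 and 3 are empty in all 9 panels, while every panel has at least 1 H3K27ac peak.

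When JunB peaks were merged where they overlapped, the 11 peaks formed 10 regions. Of these, 1 region had a peak in young replicate 1 and the aged library. Another 7 had a peak in the aged library alone, 2 in young replicate 1 alone and 0 in all 4 libraries. The share of all merged JunB regions with a peak in all 4 libraries was not computed. Of the 8 aged peaks, 1 overlapped a young peak, beside 39.4% of all aged peaks. Of the 3 peaks of young replicate 1, 1 overlapped a peak of another JunB list, beside 62.9% of all its peaks. H3K27ac was overlapped by 6 of the 10 regions: by 2 of the 3 young peaks and 4 of the 8 aged peaks, where 46.8% and 47.1% of all peaks of those lists did so.

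Igf1, which encodes the ligand made in muscle as well as in liver, held the only region near a member found in 2 libraries. These were young replicate 1 and the aged library. The gene lies on the plus strand of chromosome 10 from 87858265 to 87937042 (ENSMUSG00000020053.18) and has 8 annotated start sites. The peak ran from 87885635 to 87885940 in young replicate 1, with a fold enrichment of 5.27 over the local background and a −log10 p of 8.21. In the aged library it ran from 87885613 to 87885993, with a fold enrichment of 5.84 and a −log10 p of 8.83. Both summits lay in an intron, the nearest start site was 24.3 kb away, and the nearest H3K27ac peak was 5819 bp from the young peak. The sequence of the Igf1 intron printed above held no AP-1 or CRE motif. Young replicates 2 and 3 had no peak there: their nearest peaks to an Igf1 TSS were 70.1 kb and 98.6 kb away.

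Igf2, the ligand that is imprinted and most active before birth, had no JunB peak within 50 kb in any library. It lies on the minus strand of chromosome 7 from 142650766 to 142666816 (ENSMUSG00000048583.16). The nearest peaks of young replicates 1, 2 and 3 were each 182 kb away, at the same region, and the nearest aged peak was 98.1 kb away, with a −log10 p of 5.22. That aged peak was nearer to H19, the non-coding gene beside Igf2, at 21581 bp. Its nearest coding gene was Mrpl23, at 18609 bp.

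Igf1r, which encodes the receptor for both ligands, had 1 JunB peak within 50 kb of a start site, in the aged library. The gene spans 280842 bp of the plus strand of chromosome 7, from 67952827 to 68233668 (ENSMUSG00000005533.10). The peak lay in an intron from 68129333 to 68129577, with a fold enrichment of 3.90 and a −log10 p of 4.83, inside an H3K27ac peak from 68129254 to 68129945. It was assigned through a start site inside the gene, 19013 bp away, and its summit was 176650 bp from the 5′ end of Igf1r. With the 5′ ends of the genes as the only start sites, the aged count of regions was 7 instead of 8. Its −log10 p was below that of the weakest peak in the list of young replicate 2 (5.33).

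Igfbp6, whose protein prefers IGF2 over IGF1, had 3 JunB peaks, all in the aged library, and 0 in each young library. The gene lies on the plus strand of chromosome 15 from 102144362 to 102149511 (ENSMUSG00000023046.6) and has 1 start site. The promoter peak ran from 102143071 to 102143459, 903 bp upstream of the TSS, with a fold enrichment of 4.67 and a −log10 p of 6.21, and overlapped no H3K27ac peak. A distal peak 7.93 kb upstream, from 102136162 to 102136429, spanned the TSS of the neighbouring gene Spryd3, had a −log10 p of 6.20 and coincided with an H3K27ac peak from 102135861 to 102136681. The peak 23.2 kb downstream, from 102167577 to 102167841, had a −log10 p of 6.21, overlapped no H3K27ac peak and was nearer to Csad (11178 bp), an enzyme of taurine synthesis. It held 1 AP-1 motif, 181 bp from its summit, seen in capitals in the sequence of the Igfbp6 downstream peak. The young lists were far from this gene, since their nearest peaks were 160 kb, 261 kb and 261 kb away in replicates 1, 2 and 3.

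Igfbp7 had 4 JunB peaks, 2 from each of young replicate 1 and the aged library, all in introns of the gene and all overlapping H3K27ac. It lies on the minus strand of chromosome 5 from 77349240 to 77408041 (ENSMUSG00000036256.13). In young replicate 1 the promoter peak ran from 77406379 to 77406661, 1379 bp downstream of a TSS, with a fold enrichment of 4.20 and a −log10 p of 5.94. It lay inside an H3K27ac peak from 77406111 to 77407503 with a −log10 p of 24.1. The aged library and young replicates 2 and 3 had no peak at this promoter.

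Deeper in Igfbp7, the aged library had a peak from 77367565 to 77367827 (fold enrichment 5.71, −log10 p 8.33), 40.2 kb from the TSS. Near the 3′ end, young replicate 1 and the aged library each had a peak inside the same H3K27ac peak, from 77357593 to 77358807. The peaks did not touch each other. The young peak ran from 77357822 to 77358141 (fold enrichment 3.74, −log10 p 4.77) and the aged peak from 77358354 to 77358641 (fold enrichment 5.01, −log10 p 7.81). They lay 49.9 kb and 49.4 kb from the TSS, just inside the 50 kb limit, and were nearer to the TSS of Polr2b, a subunit of RNA polymerase II, at 17454 bp and 17986 bp. The aged peak held 1 CRE motif 46 bp from its summit and 1 AP-1 motif 148 bp from it, which are the capitals of the Igfbp7 intron sequence.

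Igfbp4, an inhibitor of IGF action that is cut by the protease PAPP-A, had 1 JunB peak within 50 kb, in the aged library. The gene lies on the plus strand of chromosome 11 from 99041244 to 99054392 (ENSMUSG00000017493.12). The peak ran from 99082366 to 99082842, 35.1 kb downstream of a TSS, with a fold enrichment of 3.94 and a −log10 p of 4.90. It lay in an intron of Tns4, a focal adhesion protein, whose TSS was nearer (6443 bp), and it overlapped no H3K27ac peak. The nearest young peaks were 98.4 kb, 98.5 kb and 108 kb away in replicates 1, 2 and 3.

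No JunB peak lay within 50 kb of the binding protein genes Igfbp2, Igfbp3 and Igfbp5. Igfbp3 encodes the main carrier of IGF in serum (ENSMUSG00000020427.11, minus strand of chromosome 11 from 7206086 to 7213923). Its nearest peaks were 57.2 kb and 57.3 kb away in young replicates 1 and 2, at a region nearer to Adcy1, whereas they were 922 kb away in young replicate 3 and 377 kb away in the aged library. Igfbp2 (ENSMUSG00000039323.18, plus strand, 72824503 to 72852474) and Igfbp5 (ENSMUSG00000026185.8, minus strand, 72857932 to 72874884) are neighbours on chromosome 1. IGFBP5 is the binding protein best known for its part in myoblast differentiation. All 4 libraries had their nearest peak to both genes at the same region, 103 kb from Igfbp2 and between 76.5 kb and 76.8 kb upstream of Igfbp5.

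**Figure D2:**
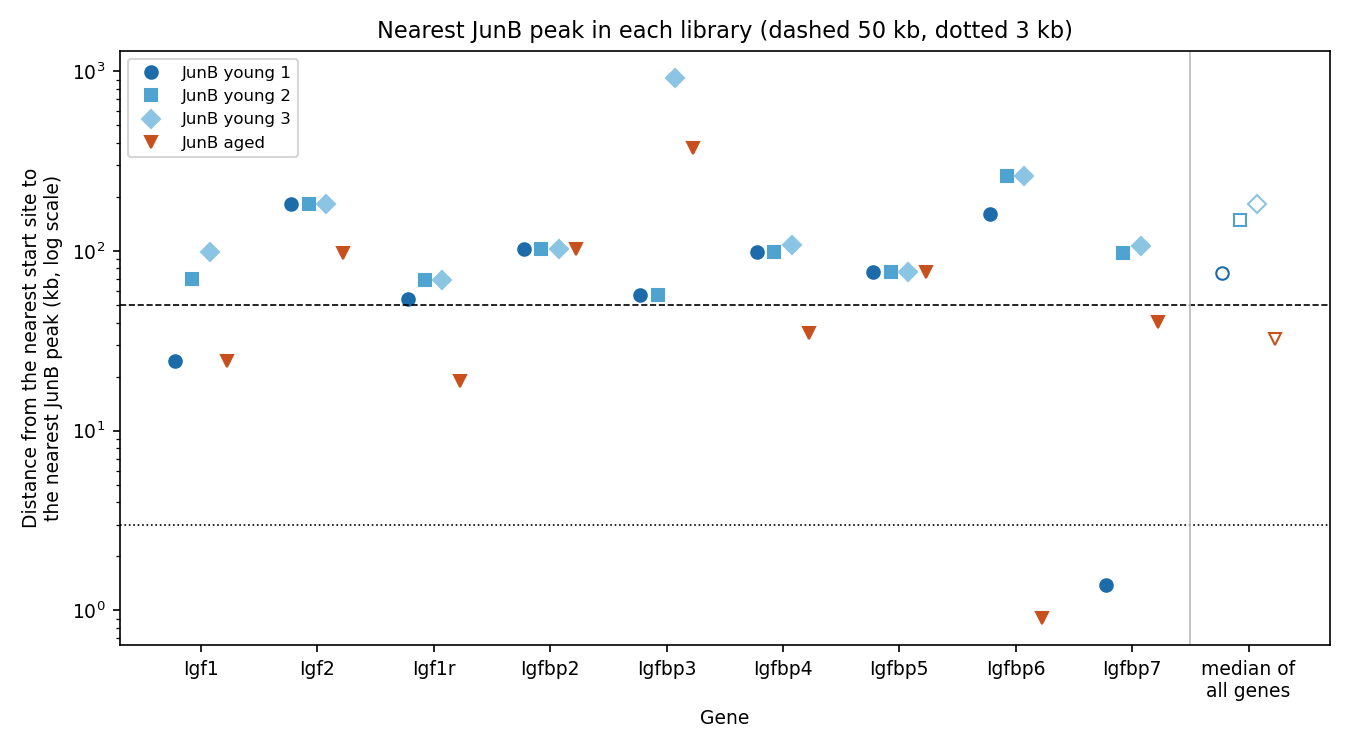
Distance in kb, on a log axis, from the nearest TSS of each gene to the nearest JunB peak in each of the 4 libraries. Open symbols at the right give the median over 21938 protein-coding genes. The aged library is below 50 kb at 5 genes, and all 4 libraries sit together at Igfbp2 and Igfbp5.

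The median distance from a member to its nearest JunB peak was 76.5 kb, 97.6 kb and 106 kb in young replicates 1, 2 and 3, where the median over all protein-coding genes was 75.2 kb, 148 kb and 182 kb. In the aged library it was 40.2 kb beside 32.6 kb. The median of the members was thus smaller than that of all genes in young replicates 2 and 3, although no member had a peak within 50 kb there, and larger in young replicate 1 and in aged MuSCs.

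By strength, the 3 peaks of young replicate 1 had −log10 p between 4.77 and 8.21, all below the median of that list (8.43). The 8 aged peaks ranged from 4.83 to 8.83 with a median of 6.21, and 3 of them were above the list's median of 7.24: the peak in Igf1 and both peaks in Igfbp7. The peak in Igf1 was the strongest in each list, with 52.4% of the peaks of young replicate 1 and 33.2% of the aged peaks stronger than it. At the lowest −log10 p shared by the 4 JunB lists, 5.33, 6 of the 8 aged and 2 of the 3 young regions were left. AP-1 lay within 50 bp of the summit in 0 of the 11 peaks and anywhere in the peak in 2 of them. Over whole peaks, 32.2% of all peaks of young replicate 1 and 22.5% of all aged peaks held AP-1. The shares of AP-1 around the summit over all peaks were 5.24% and 3.59%. The 0 of 11 is near these shares, so no lack of the motif is read from it. CRE was in 1 of the 11 peaks, beside 1.82% of all peaks of young replicate 1 and 1.96% of all aged peaks. Among 13 RefSeq promoters of the 9 genes (250 bases before to 50 after the start), 1 held AP-1, at Igfbp2, and 0 held CRE, beside 5.20% and 1.79% of all 32851 promoters.

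**Figure D3:**
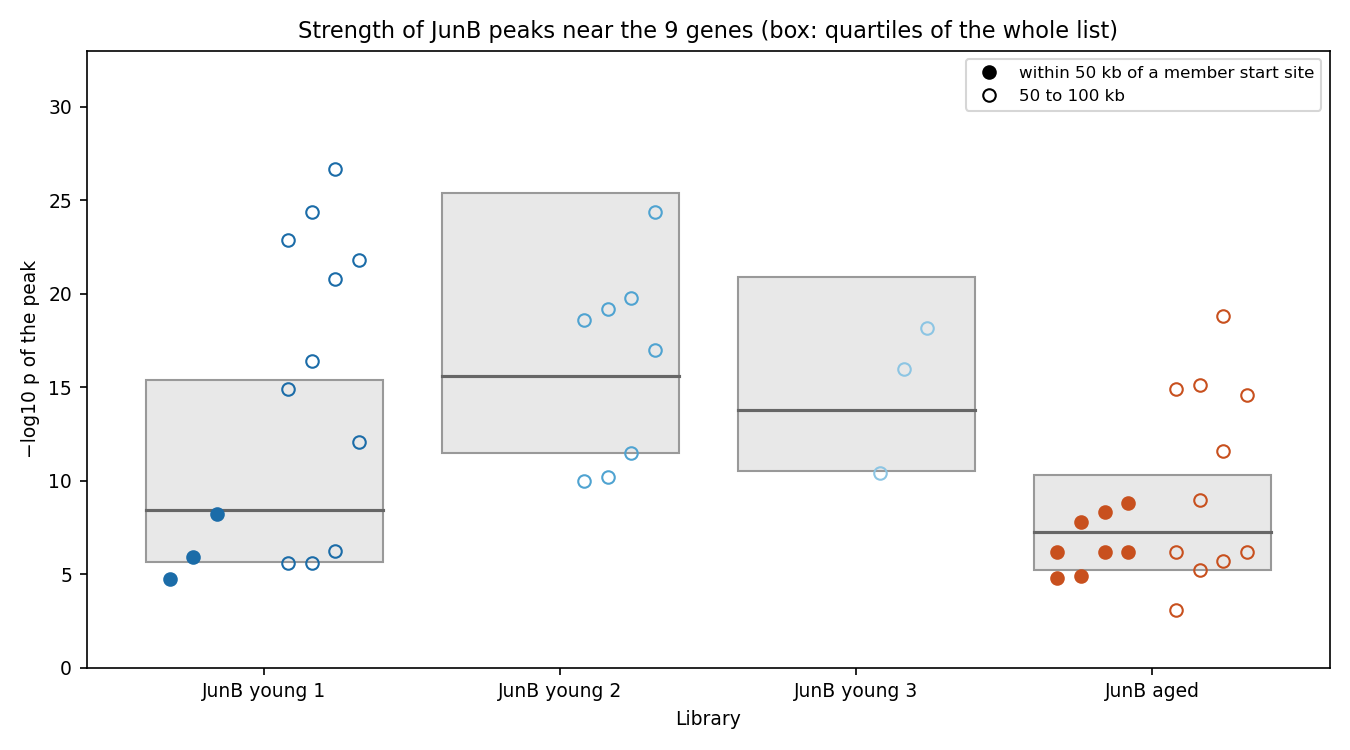
−log10 p of the JunB peaks (y axis) within 50 kb of a TSS of the 9 genes (filled circles, left of each box) and of those farther away, up to 100 kb (open circles), for the 4 JunB libraries (x axis). Boxes span the lower to the upper quartile of the whole list with the median as a line. Filled circles reach 8.21 in young and 8.83 in aged MuSCs, and open circles reach 26.7 in young replicate 1.

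Between 50 kb and 100 kb from a TSS of a member there were 15 JunB regions, of which 6 had a peak in 1 list, 3 in 2 lists, 3 in 3 lists and 3 in all 4 lists, and 9 overlapped H3K27ac. The shares of all merged JunB regions by number of lists, or over H3K27ac, were not computed, so these counts have no reference. Within 100 kb the aged library had 19 regions, 8 of them shared with a young library, and the young libraries had 14. Just outside the limit lay a peak of young replicate 1 upstream of Igf1 (52.0 kb, −log10 p 5.63) and a region in Igf1r found in young replicate 1 and the aged library (53.7 kb, −log10 p 5.63 and 3.11).

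The 3 regions found in all 4 lists belonged to Igf1, Igf1r and Igfbp5. The region in Igf1r lay in the gene from 68021589 to 68022317, 68.8 kb downstream of a TSS, and overlapped an H3K27ac peak with a −log10 p of 21.4. Its −log10 p was 24.4, 24.4 and 16.0 in the 3 young lists and 14.6 in the aged list, where 12.0% of peaks were stronger. The region beyond the 3′ end of Igf1 ran from 87959808 to 87960729, 98.5 kb from a TSS, with −log10 p of 16.4, 17.0 and 18.2 in young MuSCs and 14.9 in aged MuSCs, where 11.6% of peaks were stronger. It overlapped no H3K27ac peak, and Igf1 was its nearest protein-coding gene. The region upstream of Igfbp5 ran from 72951395 to 72951975, with −log10 p of 22.9, 19.2 and 10.4 in young MuSCs and 6.21 in aged MuSCs, and overlapped an H3K27ac peak with a −log10 p of 29.6. Its nearest coding gene was Tnp1, at 63934 bp.

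The 201 bp around the strongest summit of these regions are shown because they are the mJunB sites nearest to the members that were found in every library (chr7:68021657-68021857, chr10:87960271-87960471 and chr1:72951652-72951852), and they were chosen after their values were seen.
Igf1r intron: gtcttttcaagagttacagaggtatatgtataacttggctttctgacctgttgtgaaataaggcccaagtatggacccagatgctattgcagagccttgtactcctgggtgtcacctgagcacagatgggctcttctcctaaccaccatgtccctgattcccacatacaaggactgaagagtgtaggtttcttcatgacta
Igf1 downstream: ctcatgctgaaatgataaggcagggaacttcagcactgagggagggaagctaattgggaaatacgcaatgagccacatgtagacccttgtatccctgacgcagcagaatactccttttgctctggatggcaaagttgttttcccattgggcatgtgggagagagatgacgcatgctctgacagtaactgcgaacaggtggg
Igfbp5 upstream: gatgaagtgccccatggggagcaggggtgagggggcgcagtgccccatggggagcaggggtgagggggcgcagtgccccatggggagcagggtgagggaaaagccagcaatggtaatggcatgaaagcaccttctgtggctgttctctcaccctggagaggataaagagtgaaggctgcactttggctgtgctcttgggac
None of the 3 windows held AP-1 or CRE. In the whole regions there was 1 AP-1 motif, in the Igf1r region, 320 bp from the strongest summit. The share over all peaks was not computed for windows or merged regions of this size, so these counts have no reference. Within 50 bp of the summit, AP-1 lay in 5.24%, 5.87% and 7.21% of all peaks of young replicates 1, 2 and 3. In the aged list it was 3.59%. The Igfbp5 window held a tandem repeat, in which a run of 54 bp matched the sequence 33 bp farther on without a mismatch.

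H3K27ac marked all 9 genes within 50 kb, beside 76.6% of all protein-coding genes, with 43 distinct peaks, of which 7 were promoter and 36 distal peaks. Promoter peaks were found at 4 members, Igf1, Igf1r, Igfbp4 and Igfbp7, beside 49.8% of all genes. The members' H3K27ac peaks had a median −log10 p of 10.5, between 5.23 and 25.6, and 19 of the 43 were above the list's median of 11.0. JunB peaks of any library overlapped 5 of the 43, beside 20.1% of all H3K27ac peaks.

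By gene, Igf1r had 13 H3K27ac peaks, all in its introns, with 2 near its 5′ end and 1 promoter peak at a start site inside the gene. Its 6 start sites gave it a search window of 263250 bp, against 100001 bp for Igfbp6 and 100002 bp for Igfbp7, so counts are not comparable between genes. Igf1 had 4, including a peak that spanned a TSS (−log10 p 9.98) and the strongest peak near any member, in an intron 40284 bp from a TSS, from 87901613 to 87903159 (−log10 p 25.6). Igfbp7 had 7, with its promoter peak (−log10 p 24.1) as the strongest. The promoter peak of Igfbp4 (99046406 to 99047196, −log10 p 23.9) lay 115 bp upstream of a start site inside the gene. Igfbp6 also had 7, yet none was a promoter peak and each was nearer to a start site of another coding gene, Tns2, Spryd3 or Csad. Igfbp5 had 4 upstream peaks, the nearest at 10.6 kb, and that peak (72885532 to 72886445, −log10 p 15.1) was also the only H3K27ac peak within 50 kb of Igfbp2. Igfbp3 had 3 upstream peaks between 12.5 kb and 49783 bp away, and Igf2 had 1 peak, 5705 bp downstream of its nearest start site. The median distance from a member to its nearest H3K27ac peak was 5.71 kb, where it was 3.11 kb over all genes.

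Among 18 other genes of the pathway, fixed as a list with earlier results of these data known, JunB promoter peaks were found at 3, 2 and 2 genes in young replicates 1, 2 and 3 and at 7 genes in the aged library, and peaks within 50 kb at 8, 7, 5 and 10 genes. Over all protein-coding genes the shares in the same order were 11.0%, 7.74%, 5.91% and 23.9% for promoter peaks and 40.4%, 27.5%, 23.4% and 58.4% within 50 kb. The 7 genes with a promoter peak in any list were Igf2r, Irs1, Irs2, Pappa2, Htra1, Igf2bp2 and Igf2bp3. The share of all genes with a promoter peak in any list was not computed. Of the 18 genes, 11 had a peak within 50 kb in any list, where 35.5% of all protein-coding genes had none. The remaining 11 genes had no JunB promoter peak, and H3K27ac promoter peaks were found at 8 of the 18, beside 49.8% of all genes.

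Of the 7 genes with a promoter peak, Igf2r, Irs2 and Igf2bp2 had a region within 50 kb with a peak in every JunB library. No member had one at this distance. The share of all genes with such a region was not computed, and the other pathway genes were not described in this way, so no difference is read from it. Igf2bp2, which encodes an RNA-binding protein of Igf2 mRNA, had a region 2.11 kb from a TSS in all 4 lists, with −log10 p of 18.7, 13.5 and 16.7 in young and 7.75 in aged MuSCs, and it overlapped H3K27ac. Its relative Igf2bp3 had a region 2.23 kb from a TSS in 3 lists (−log10 p 13.5 in young replicate 1, 15.2 in young replicate 2 and 12.9 in aged MuSCs). Igf2r, the receptor that clears IGF2, had a region 3.65 kb from a TSS in all 4 lists, with −log10 p of 38.3, 36.3 and 34.5 in young and 16.6 in aged MuSCs, and its promoter peak was found in the aged library alone (−log10 p 5.13). Htra1, a secreted protease that cuts IGF-binding proteins, had a region spanning a TSS in 3 lists (−log10 p 11.7 in young replicate 1, 7.84 in young replicate 3 and 12.2 in aged MuSCs). The adaptor genes Irs1 and Irs2, which carry the signal of the receptor, and the protease gene Pappa2 had promoter peaks in the aged library alone, with −log10 p of 5.04, 5.86 and 6.21 and no H3K27ac overlap. Irs2 also had a region 42.6 kb from a TSS in all 4 lists (−log10 p 11.9, 30.9 and 21.2 in young and 10.6 in aged MuSCs).

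**Figure D4:**
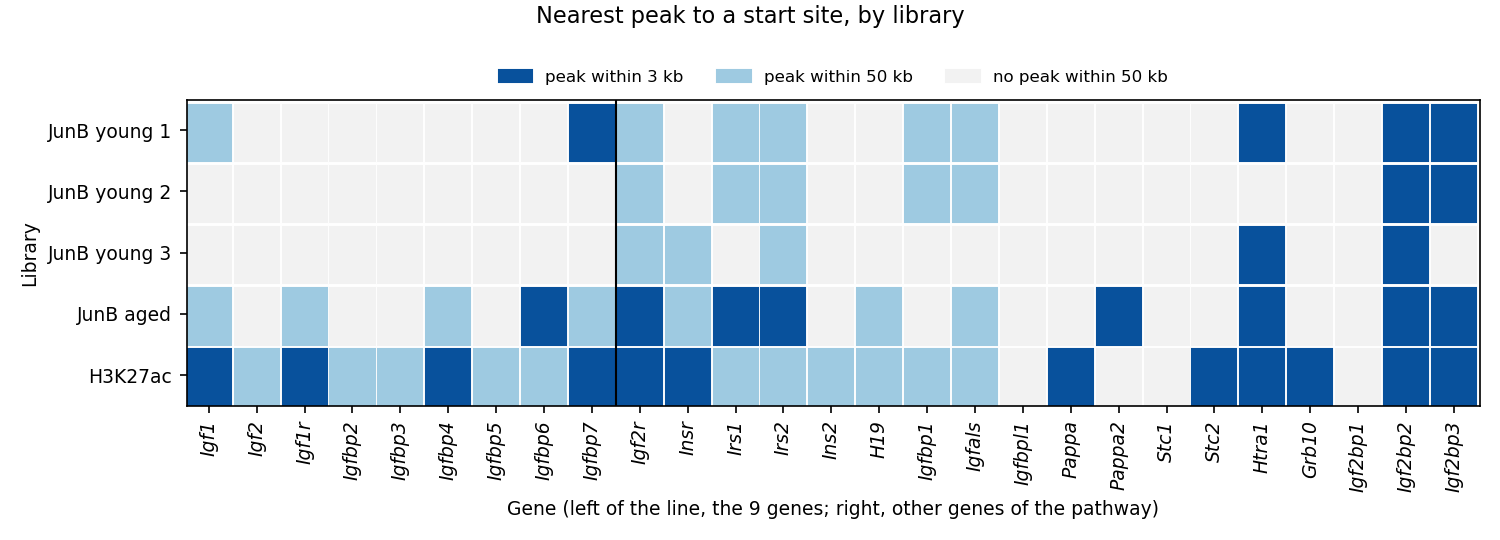
Distance class of the nearest peak to a TSS for the 9 genes and for 18 other genes of the pathway (columns) in the 4 JunB libraries and the H3K27ac library (rows). Dark cells have a peak within 3 kb, light cells within 50 kb and grey cells neither. Young replicates 2 and 3 are grey for all 9 genes, and Igf2bp2 is dark in every row.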

How the data were processed

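CUT&RUN-seq peak lists of 3 young and 1 aged JunB library and 1 H3K27ac library of mouse MuSCs were analysed, the last named as CUT&RUN-seq with an uncertain origin. The authors mapped reads to mm10 (Bowtie2), removed duplicates and called peaks per library (MACS2, per the submitters' processing notes); versions and a control library are not given in the sources used here. The deposited lists give, per peak, a fold enrichment (a ratio to the local background), −log10 p and −log10 q values, and a score, which was not used. These values are relative to their own library and were used to describe and filter peaks. Samples were grouped by the labels.

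Distances run from the nearest base of a peak to any GENCODE M21 TSS. Overlap means at least 1 bp, and young peaks were merged where they overlapped. Motifs were searched on both strands. Python 3.11.15, numpy 2.4.6, matplotlib 3.10.9 and samtools 1.23.1 were used, and on simulated data the interval operations gave the same answers as bedtools 2.31.1. No test was made between ages. Members and lists were chosen with earlier results of these data known. All members were named, with their promoter peaks, the regions in all 4 lists and the strongest peak of each member per library, as were pathway genes with a JunB promoter peak. The other JunB regions within 50 kb of members, and those farther away, were named after their values were seen.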

Additional observations from a re-analysis of the deposited data

How the results depend on the processing

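The 7 counts of regions and genes near the members were recomputed under 15 alternatives, and 41 of 70 values were within 1.5 times the reported count. Within 20 kb, 3 aged and 1 young regions were left, 2 and 1 of them over H3K27ac, with 0 aged regions shared with young; within 100 kb there were 19 and 14, 10 and 10 of them over H3K27ac, with 8 shared. With the 3863 strongest peaks of each JunB list all 7 counts were 0. A peak in at least 2 young libraries left 0 young regions, 0 young promoter genes, 0 young regions over H3K27ac and 0 shared aged regions. Leaving out 1 young library gave 0 to 3 young regions, 0 to 1 young promoter genes, 0 to 2 young regions over H3K27ac and 0 to 1 shared aged regions, with each 0 in the absence of young replicate 1. A promoter limit of 1 kb left 0 young promoter genes. Young regions over H3K27ac fell to 1 at a −log10 p of 5.33 and at a −log10 q of 2, and aged ones to 2 with only the H3K27ac peaks stronger than that list's median. Summits as the distance point, a promoter limit of 5 kb, the 5′ end as the TSS and an overlap of 50% of the region moved no count by more than 1.5 times. No paired analysis was possible because the aged group had 1 library and no test was made. Why the counts moved was not tested.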
